A study of Mus musculus with 6 samples.

Results

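Fibronectin, the thrombospondins and the other matricellular proteins are secreted into the space around cells. Fibronectin and the fibrillins build fibres that cells hold through integrins, whereas the matricellular proteins (thrombospondins, tenascin-C, periostin, SPARC, osteopontin) mainly alter how cells attach to and signal from that matrix. Preadipocytes make a fibronectin-rich matrix, and its loss is a known part of adipocyte differentiation. The genes described here are Fn1, Thbs1, Thbs2, Thbs3, Postn, Tnc, Sparc, Spp1, Fbn1 and Eln, and 10 of 10 were found by symbol among 13283 genes. They were chosen by gene family while the MICT1 KO against Scr differences of these same libraries were known. Their fold changes and adjusted p-values are therefore a description of size against replicate spread, not independent evidence.

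RNA-seq was available for 6 libraries of the immortalized mouse BAT line, 3 from control BAT-Cas9 cells carrying scrambled sgRNA (Scr, labelled WT) and 3 from MICT1 KO pools made with CRISPR-Cas9. The cells of all 6 libraries were put through brown adipocyte differentiation with a cocktail that included rosiglitazone. All received 10 µM forskolin, an activator of adenylyl cyclase, for 6 h on day 6. There was no unstimulated or undifferentiated culture. The knockouts are pools of cells of a single line, and the labels do not say which of the sgRNA pools gave which library.

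Each value is a normalized signal, the estimated number of reads of a gene divided by a size factor of its library. The totals correspond to about 15437380 to 17917646 reads per library. Genes entered the test when 3 or more libraries had a value of 10 or more, which 12507 genes and 9 of the 10 members met. Fold changes are on the log2(value + 1) scale, from limma-trend, with p adjusted by the Benjamini-Hochberg method over all 12507 genes. In Scr replicate 2 the highest value of all was that of the ribosomal RNA precursor Rn45s, 319163. Without that library 8 members were again called higher and 0 lower. MICT1 was not analysed here, so the KO labels were not checked on the targeted gene.

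The labelled cell type was checked on adipocyte markers. Of 8 markers 8 passed the limma-trend test as lower in MICT1 KO libraries (adjusted p under 0.05), against 28.3% of all genes tested. Their summed signal was 71350.1 to 83969.8 in Scr and 5646 to 9564 in KO libraries. Adipoq, which encodes adiponectin, had a mean of 624 in Scr and 5.32 in KO, and Fabp4, a fatty acid-binding protein, of 53342.9 and 5461. Ucp1, which the paper describes as restricted to brown fat outside of cold exposure, was low in both groups. Its values were 20.8, 24.1 and 30.5 in Scr and 1.91, 1.05 and 9.33 in KO replicates. The check therefore describes adipocyte transcripts and does not show brown identity. All matrix results below therefore compare cultures that also differ in these adipocyte transcripts. In bulk RNA, fewer differentiated cells and less adipocyte RNA per cell cannot be told apart, and their part in the matrix differences was not tested.

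Most of the members chosen were higher in MICT1 KO cells, whereas the other matricellular genes, given below, went in both directions. Of the 9 members tested, 8 passed the limma-trend test as higher and 0 as lower (adjusted p under 0.05), and at an unadjusted p under 0.05 the count lower was also 0. Among all genes tested, 28.5% were called higher and 28.3% lower. With at least a 2-fold change as well, 6 members were higher, against 7.99% of all genes. Every KO value lay above every Scr value in 8 of the 10 members, a pattern seen in 30.9% of the genes tested. The median log2 fold change was 1.49 over the 9 members and -0.0053 over all genes tested. The exceptions were Sparc, which did not pass, and Eln, which was lower and too low for the test.

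Promoter sequences were looked up for all members. RefSeq (GRCm38.p6) gave the 250 bases before the annotated start of 6 members, Thbs2, Thbs3, Postn, Tnc, Sparc and Spp1. For Fn1, Thbs1, Fbn1 and Eln no promoter entry at the annotated start was used. Their promoters were not searched, so the counts below leave out Fn1, Thbs1 and Fbn1, which also rose. Sequences are shown for Spp1, Thbs2 and Tnc, which rose and hold a match to the TATA box letters, and for Sparc, whose groups overlapped. Those of Thbs3 and Postn, which also rose and hold no such match, are not shown. Letters in capitals mark matches on either strand to the motifs searched: the cAMP response element TGACGTCA and its part TGACG, the AP-1 site TGANTCA, the TEAD site GGAATG, the SMAD site CAGAC and the TATA box TATAAA. The first holds the second, and each other motif was searched on its own.
Spp1, chr5:104434861-104435110, plus strand: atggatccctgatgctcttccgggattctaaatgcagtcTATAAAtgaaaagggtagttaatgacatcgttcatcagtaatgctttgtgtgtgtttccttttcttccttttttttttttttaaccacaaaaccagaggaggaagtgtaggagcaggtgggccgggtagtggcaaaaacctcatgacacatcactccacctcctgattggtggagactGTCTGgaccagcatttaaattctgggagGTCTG
Thbs2, chr17:14694263-14694512, minus strand: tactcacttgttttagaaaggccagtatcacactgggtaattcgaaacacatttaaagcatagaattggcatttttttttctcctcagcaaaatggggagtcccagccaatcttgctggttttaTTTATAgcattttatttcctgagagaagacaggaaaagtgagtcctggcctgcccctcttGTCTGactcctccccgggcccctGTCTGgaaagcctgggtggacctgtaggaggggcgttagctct
Tnc, chr4:64047016-64047265, minus strand: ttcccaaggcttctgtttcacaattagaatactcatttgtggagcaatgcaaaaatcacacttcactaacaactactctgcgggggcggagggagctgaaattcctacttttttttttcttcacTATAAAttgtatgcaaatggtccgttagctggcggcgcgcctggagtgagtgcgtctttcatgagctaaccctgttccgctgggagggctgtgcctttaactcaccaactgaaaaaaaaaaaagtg
Sparc, chr11:55420081-55420330, minus strand: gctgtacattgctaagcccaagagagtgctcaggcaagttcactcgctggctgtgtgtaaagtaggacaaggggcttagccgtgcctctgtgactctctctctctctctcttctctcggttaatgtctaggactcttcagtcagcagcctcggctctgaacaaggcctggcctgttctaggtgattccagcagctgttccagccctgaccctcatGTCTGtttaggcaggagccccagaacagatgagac

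The SMAD letters were found in 4 of these 6 promoters and in 42.2% of the 32851 RefSeq promoters of the same length. They occurred in Spp1, Thbs2 and Postn, which rose, and in Sparc, which did not pass. They did not occur in Tnc and Thbs3, which also rose, and Thbs3 held no match to any motif searched. Sparc was the only gene among the 6 that did not pass, and whether the letters go with a rise was not tested. The TATA letters were found in 3 of 6 (Spp1, Thbs2 and Tnc), against 12.4% of all promoters. Counted from the start, they lay at -211 to -206 in Spp1 and at -126 to -121 in Tnc. In Thbs2 they lay at -126 to -121 on the other strand. Whether any of them acts as a TATA box was not tested. The cAMP response element, its part, the AP-1 and the TEAD letters were found in 0 of 6, against 1.55%, 17.8%, 6.75% and 12.6% of all promoters. A match is a run of letters, not evidence of binding, and its absence says only that those letters are not in this window.

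**Figure D1:**
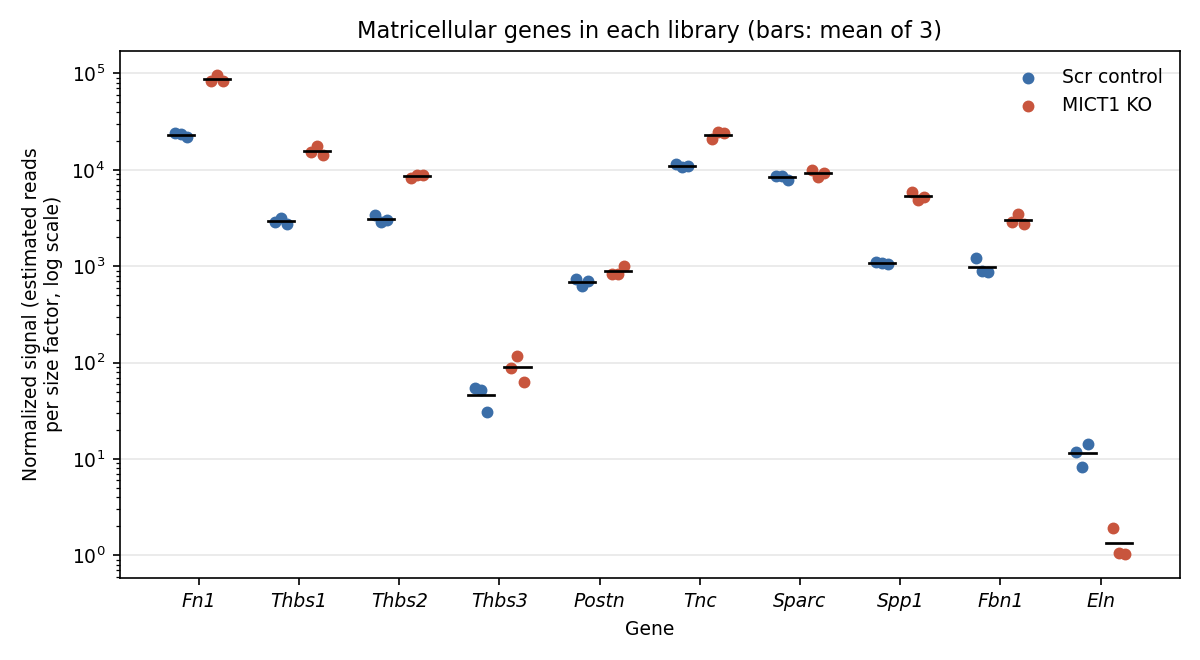
Normalized signal (log scale) of each gene in the 3 Scr and 3 MICT1 KO libraries, with a bar at each group mean. Fn1 rises from 21787 to 24207 in Scr to 82666.5 to 97055 in KO, the groups overlap in Sparc, and Eln is the gene that is lower in KO.

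Fn1 encodes fibronectin, the fibre-forming glycoprotein that many other matrix proteins are laid down on. The gene lies on the minus strand of chromosome 1 from 71585473 to 71653280 (GRCm38). Its values were 24207, 23745 and 21787 in Scr replicates 1 to 3 and 82666.5, 97055 and 82853 in KO replicates 1 to 3. The lowest KO value was 3.41 times the highest Scr value, and KO replicate 2 was the highest of the 6 libraries. The mean rose 3.77-fold, from 23246.5 ± 1285 (SD, n = 3) to 87525 ± 8254 (SD, n = 3), or 1.91 ± 0.066 (SE) in log2 units (limma-trend, adjusted p = 1.10e-15). In rank by signal, where longer genes have more reads, Fn1 went from place 40 in Scr to place 3 in KO among the 13283 genes. It took 0.142% ± 0.0087 (SD, n = 3) of the signal of a Scr library and 0.536% ± 0.052 (SD, n = 3) of that of a KO library.

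The thrombospondins are calcium-binding glycoproteins. Thrombospondin-1 and thrombospondin-2 form trimers, bind the receptors CD36 and CD47 and restrain blood vessel growth, and thrombospondin-1 can also activate latent TGF-beta. Thrombospondin-3 belongs to the pentameric subgroup, which lacks the repeats that bind CD36.

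Thbs1 (plus strand of chromosome 2, 118111876 to 118127133, GRCm38) measured 2897, 3166 and 2745 in Scr replicates and 15253, 17558 and 14382 in KO replicates. The groups were far apart, with the lowest KO value 4.54 times the highest Scr value. Its difference of 2.42 ± 0.068 (SE) in log2 units (limma-trend, adjusted p = 3.93e-17) was the largest of the 9 members tested, and 139 of the 12507 genes had a higher one. For Thbs2 (minus strand of chromosome 17, 14665500 to 14694262) the values were 3386, 2895 and 3014 in Scr and 8211, 8901 and 8906 in KO. They did not overlap either, and the difference was 1.49 ± 0.061 (SE) in log2 units (limma-trend, adjusted p = 1.74e-14).

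The paralogs were also compared per length. The ratio of Thbs1 to Thbs2 in RPKM (reads scaled to exon length and library size) was 0.987, 1.26 and 1.05 in Scr and 2.14, 2.27 and 1.86 in KO libraries. Scr cells held the pair at near equal levels per length, and in every KO library Thbs1 was the higher of them. This is given as a description, since both genes were chosen with the contrast known.

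Thbs3 (plus strand of chromosome 3, 89215180 to 89226841) was much lower, at 54.4, 51.9 and 30.5 in Scr and 88.7, 117 and 63.2 in KO libraries. The KO values were all above the Scr values, but narrowly, with the lowest KO value 1.16 times the highest Scr value. The difference was 0.96 ± 0.28 (SE) in log2 units (limma-trend, adjusted p = 0.00674), with a 95% interval of 0.37 to 1.55. Without KO replicate 2 it was 0.75 and did not pass (adjusted p = 0.0565 from limma-trend), and over the 13 alternatives in which it was tested its adjusted p ran from 0.00235 to 0.0565. Mtx1, on the opposite strand, shares 318 exon bases with Thbs3. Its values overlapped between the groups (-0.03 ± 0.12, SE, in log2 units, limma-trend adjusted p = 0.848), and whether the counting used strand is not given in the sources used here.

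Tenascin-C and osteopontin are matricellular proteins typical of tissue that is being remodelled, and both bind integrins. Tnc (minus strand of chromosome 4, 63959785 to 64047015) was already abundant in Scr, at 11393, 10818 and 10863, and reached 21093, 24499 and 23909.5 in KO libraries. The spread was small against the gap, with an SD of 2.9% of the mean in Scr and 7.86% in KO. The difference was 1.07 ± 0.059 (SE) in log2 units (limma-trend, adjusted p = 2.09e-12).

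Spp1, the gene of osteopontin, lies on the plus strand of chromosome 5 from 104435111 to 104441053. Scr libraries held 1117, 1074 and 1046 and KO libraries 5919, 4902 and 5245. Its Scr libraries were close together and its lowest KO value was 4.39 times the highest of them. The difference was 2.31 ± 0.067 (SE) in log2 units (limma-trend, adjusted p = 6.00e-17), with 164 genes above it. Macrophages are a known source of osteopontin, and their markers are given although the cultures are of an immortalized brown preadipocyte line. Of 10 macrophage markers 3 were in the table and 0 of them passed the test, with summed signals of 104 to 153 in Scr and 129 to 162 in KO libraries. Ptprc, Adgre1 and Itgam were not among the genes listed, and the part of such cells in the Spp1 difference was not tested.

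Postn encodes periostin, a protein that binds collagen and integrins and is made by fibroblasts. It lies on the plus strand of chromosome 3 from 54359267 to 54391041. Its values were 729, 628 and 695 in Scr and 822, 830.3 and 999 in KO libraries, without overlap but with the lowest KO value only 1.13 times the highest Scr value. The difference was 0.37 ± 0.090 (SE) in log2 units (limma-trend, adjusted p = 0.00168), with a 95% interval of 0.18 to 0.55. This was the smallest change among the 8 members that passed, and its interval ended below a 2-fold change.

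Sparc, the gene of a collagen-binding matricellular protein that curbs adipocyte differentiation in mice, lies on the minus strand of chromosome 11 from 55394159 to 55420080. Scr libraries held 8705, 8569 and 7846 and KO libraries 9883, 8498 and 9172. KO replicate 2 fell among the Scr values, so the groups overlapped. The difference was 0.13 ± 0.060 (SE) in log2 units, with a 95% interval of 0.0068 to 0.26 (limma-trend, adjusted p = 0.0672), and the unadjusted p was 0.0398. It passed under 3 of 14 alternatives: scaling by the 75th percentile (0.17, adjusted p = 0.0233), limma-voom (0.14, adjusted p = 0.0422) and leaving out KO replicate 2 (0.19, adjusted p = 0.0166). Over the 14 alternatives its adjusted p ran from 0.0166 to 0.275.

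**Figure D2:**
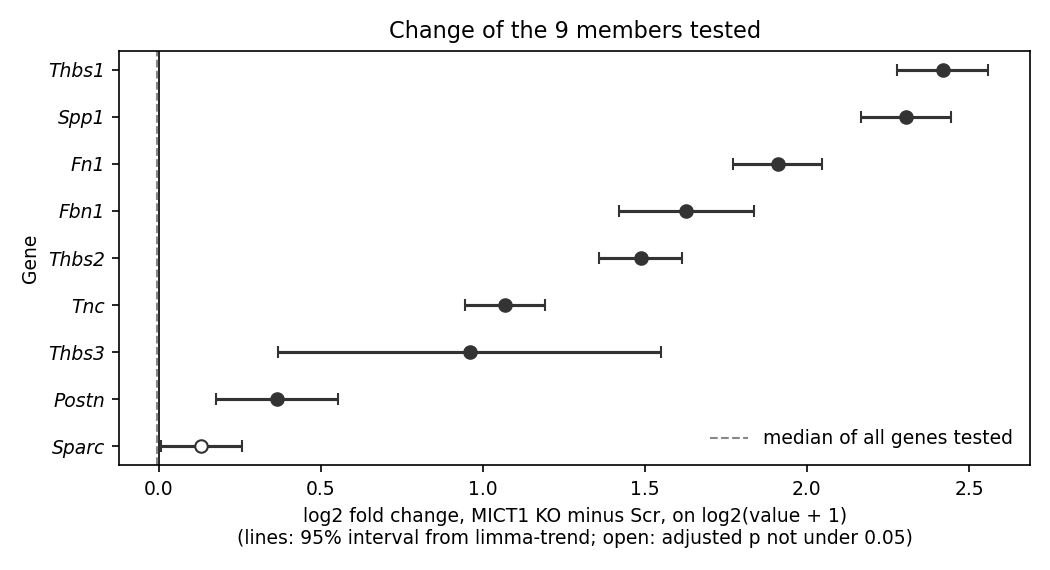
log2 fold change (MICT1 KO minus Scr) with its 95% interval for the 9 members tested, filled where the adjusted p was under 0.05, with a dashed line at the median of all genes tested. Thbs1 is highest at 2.42 and Sparc, the open point, is lowest at 0.13.

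Fibrillin-1 and elastin belong to the elastic fibre. Fibrillin-1 forms the microfibrils that store latent TGF-beta and on which elastin is deposited. Fbn1 (minus strand of chromosome 2, 125300594 to 125506485) measured 1204, 886 and 871 in Scr replicates and 2881, 3447 and 2769 in KO replicates. Scr replicate 1 was the highest control, and the lowest KO value was still 2.3 times as high. The difference was 1.63 ± 0.10 (SE) in log2 units (limma-trend, adjusted p = 1.26e-11). Gm9913, annotated on the opposite strand, shares 2442 exon bases with Fbn1 and is not among the genes listed. Gm42793, on the same strand as Spp1, shares 309 exon bases with it and is not listed either. Other unlisted genes on the opposite strand share 292 exon bases with Fn1, 208 with Thbs1, 176 with Tnc and 267 with Eln.

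Eln (minus strand of chromosome 5, 134702595 to 134747368) was hardly expressed. Its values were 11.9, 8.34 and 14.2 in Scr and 1.91, 1.05 and 1.04 in KO libraries, which, with the size factors undone, lie within 0.01 of 12, 9 and 14 reads and of 2, 1 and 1 read. All KO values were below all Scr values, the reverse of the other separated members. With 35 reads in Scr and 4 in KO, the KO level was 0.119 of the Scr level, with an exact 95% interval of 0.0306 to 0.331 that covers counting error only. Its values were too low for it to enter the test.

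Levels were compared between genes per exon length, as RPKM, and the order among the higher genes depended on the length used. In Scr libraries the order was Sparc at 135 ± 8.21 (SD, n = 3), Fn1 at 122 ± 7.46, Tnc at 86.7 ± 3.83, Spp1 at 40.0 ± 1.8, Thbs1 at 29.5 ± 1.89, Thbs2 at 27.1 ± 2.66, Fbn1 at 4.98 ± 1.02, Postn at 4.81 ± 0.431, Thbs3 at 0.578 ± 0.168 and Eln at 0.0868 ± 0.0230. Neighbouring ranges overlapped for Sparc and Fn1, for Thbs1 and Thbs2 and for Fbn1 and Postn. All other neighbours were separate.

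In KO libraries Fn1 led at 459 ± 44.5 RPKM (SD, n = 3), 2.31 times the next gene, though per coding length the next gene was Sparc and the lead was 1.28 times. Spp1 at 199 ± 18.1, Tnc at 183 ± 15.4, Thbs1 at 159 ± 16.8 and Sparc at 149 ± 10.4 followed, and each of these overlapped its neighbour. Thbs2 at 75.9 ± 3.95, Fbn1 at 15.3 ± 1.87, Postn at 6.23 ± 0.732, Thbs3 at 1.14 ± 0.342 and Eln at 0.0101 ± 0.0037 were separate from their neighbours. The ratio of Fn1 to Sparc in RPKM was 0.901, 0.898 and 0.900 in Scr and 2.71, 3.70 and 2.93 in KO libraries. Per coding length the same ratio was 0.373, 0.371 and 0.372 in Scr and 1.12, 1.53 and 1.21 in KO libraries. Under both lengths every KO ratio was above every Scr ratio, but the near equality in Scr held per exon length and not per coding length, where Sparc was 2.69 times Fn1. Dividing by coding length in place of exon length kept 6 of the 10 places in Scr, where Thbs1 changed place with Thbs2 and Fbn1 with Postn. It also moved Sparc, whose exons are mostly outside its coding sequence, from place 5 to place 2 in KO. There Spp1, Thbs1 and Tnc followed with separate ranges, and Fbn1 and Postn overlapped.

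**Figure D3:**
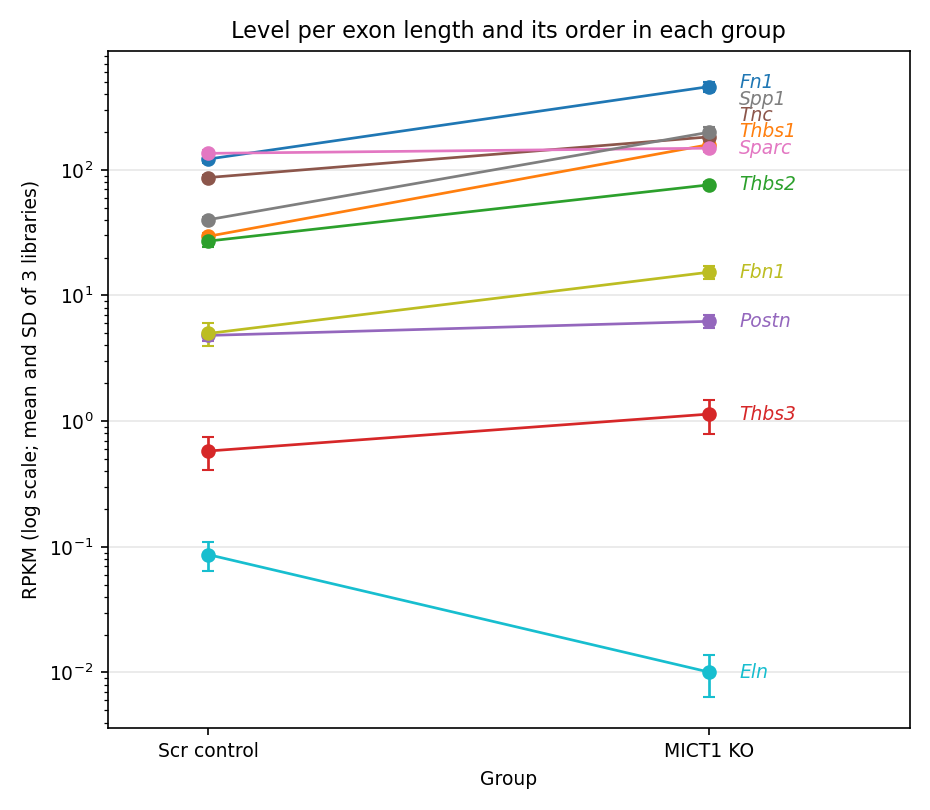
Mean RPKM per exon length (log scale) of the 10 genes in Scr and MICT1 KO with the SD of 3 libraries as error bars. Per exon length Sparc and Fn1 are the highest in Scr (135 and 122), and in KO Fn1 is at 459 with Spp1, Tnc, Thbs1 and Sparc at 199 to 149, while per coding length, not drawn, Sparc is 2.69 times Fn1 in Scr and Fn1 is 1.28 times Sparc in KO.

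As a share of all signal, the 10 genes took 0.333%, 0.312% and 0.298% of the Scr libraries and 0.893%, 1.02% and 0.913% of the KO libraries. Fn1 alone accounted for 45.1% ± 0.632 (SD, n = 3) of the members' signal in Scr and 56.9% ± 1.43 (SD, n = 3) in KO. Without Fn1 the share still went from 0.173% ± 0.0093 to 0.405% ± 0.016 (SD, n = 3 each).

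The genes around this family were followed in lists of receptors, elastic-fibre genes and other matricellular genes. Of 17 receptors and partners tested, 11 passed as higher and 2 as lower (limma-trend, adjusted p under 0.05), and the median difference was 0.31 in log2 units. Among all genes tested 28.5% were higher and 28.3% lower, with a median of -0.0053. Itga5 and Itgb1 encode the classical fibronectin receptor and are named for that role after their values were seen. They rose by 0.30 ± 0.056 and 0.31 ± 0.050 (SE) in log2 units, beside 1.91 for Fn1. The largest changes were those of Cd36, Itgb3 and Sdc2. Cd36, a thrombospondin receptor that also carries fatty acids into adipocytes, fell from 3754 ± 379 to 212 ± 89.4 (SD, n = 3 each), or -4.22 ± 0.17 (SE) in log2 units (limma-trend, adjusted p = 1.10e-14). Itgb3, the beta subunit of a receptor for osteopontin, fibronectin and thrombospondin, rose from 118 ± 34.5 to 328 ± 20.3 (SD, n = 3 each), by 1.51 on the log2 scale. Itgav, the alpha subunit of that receptor, is named after its values were seen. It measured 6414 ± 314 in Scr and 6388 ± 583 in KO (SD, n = 3 each), with overlapping groups (limma-trend, adjusted p = 0.917). Sdc2, a matrix-binding syndecan, rose by 0.83, and Sdc1, the most abundant gene of this list, fell from 28017 ± 822 to 19399.8 ± 268.2 (SD, n = 3 each).

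Among 19 elastic-fibre and microfibril genes tested, 14 were higher and 3 lower, with a median log2 fold change of 0.69. The shares over all genes tested were 28.5% higher and 28.3% lower. Lox and its relative Loxl4 encode enzymes that cross-link collagen and elastin. Lox rose from 9226 ± 246 to 26362.5 ± 1524 (SD, n = 3 each) and Loxl4 from 179 ± 17.2 to 711 ± 31.5 (SD, n = 3 each), with log2 fold changes of 1.51 and 1.99. Fbln5, a fibulin needed for elastic fibre assembly, rose by 1.58, and Fbln2, the most abundant of the list, rose by 1.39 from 10864.6 ± 1067 (SD, n = 3). The genes that fell were Emilin1 (-0.23), Ltbp3 (-0.64) and Adamtsl2 (-2.03), named for their direction after their values were seen. The groups overlapped in Adamtsl2, whose values were 10.2 to 20.4 in Scr and 0.953 to 10.4 in KO libraries. Without Scr replicate 2 only 1 of the list was lower. Fbn2 and Mfap4 were not in the table.

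Other matricellular genes went in both directions, with 8 higher and 9 lower of 19 tested and a median log2 fold change of -0.42. Over all genes tested the shares were 28.5% higher and 28.3% lower. Ccn2 and Ccn1, which encode the connective tissue growth factor and CYR61, rose most. Ccn2 went from 488 ± 55.1 to 5399.9 ± 176 (SD, n = 3 each) and Ccn1 from 3236.5 ± 215 to 26763 ± 427 (SD, n = 3 each), with log2 fold changes of 3.47 (standard error 0.074) and 3.05 (standard error 0.055). Fstl1, a secreted relative of SPARC and the most abundant gene of this list, rose by 1.91. Tgm2, a transglutaminase that binds fibronectin, fell from 1759 ± 109 to 232 ± 32.9 (SD, n = 3 each), or -2.92 ± 0.099 (SE) in log2 units. Sparcl1, named after its values were seen as the closest relative of Sparc, fell from 1746 ± 93.1 to 848 ± 72.8 (SD, n = 3 each). Tnxb and Tnn, tenascin relatives of Tnc that are also named after their values were seen, fell by log2 fold changes of -0.71 and -1.05. Their values did not overlap between the groups, and Tnn was low, with means of 41.5 in Scr and 21.2 in KO.

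**Figure D4:**
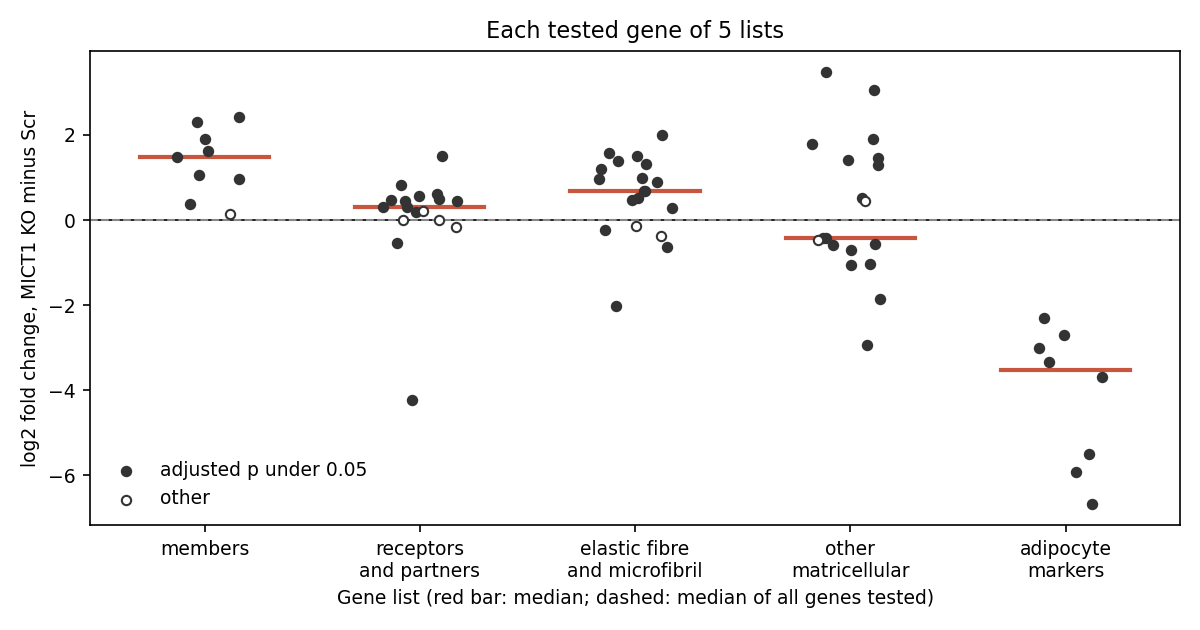
log2 fold change (MICT1 KO minus Scr) of each tested gene of the 10 members, of the 3 lists around them and of the adipocyte markers, filled where the adjusted p was under 0.05, with red bars at list medians. The members and elastic-fibre genes lie mostly above 0 (medians 1.49 and 0.69), other matricellular genes on both sides of 0, and the adipocyte markers far below it (median -3.51).

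Markers of other cells that make these proteins were set beside them. Of 7 progenitor and fibroblast markers 5 were in the table, with summed signals of 3692 to 4289 in Scr and 4657 to 4826 in KO libraries. Of the 3 tested, Ly6a (log2 fold change 1.39) and Pdgfrb (0.48) were higher and Pdgfra (-0.19) was lower. The groups overlapped in Pdgfra, at 2206 to 2444 in Scr and 1829 to 2326 in KO libraries (limma-trend, adjusted p = 0.0347). Of 4 contractile-cell markers 0 were higher and 1, Acta2, was lower (-1.33), and 0 of 2 skeletal muscle markers passed. Of 6 endothelial markers only Cdh5 was in the table, at 5.93 to 12.1 in Scr and 25.9 to 33.4 in KO libraries, while Pecam1, Kdr and Tek were not. The part of progenitor-like cells in the differences of the members was not tested.

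Across the 6 libraries the pattern of Fn1 was most like those of Fam221a, Car12 and Spag5, with a Pearson r of 0.9997, 0.9997 and 0.9994 on log2(value + 1). Among the members r with Fn1 was 0.999 for Thbs1, 0.994 for Tnc and for Thbs2, 0.99 for Spp1, 0.987 for Fbn1, 0.842 for Thbs3, 0.835 for Postn and 0.621 for Sparc. High r values were common. By r with Fn1 among 12506 genes, Thbs1 was in place 11, Tnc 160, Thbs2 182, Spp1 375 and Fbn1 488. Thbs3 was in place 3126, Postn 3196 and Sparc 4411. Sparc was most like Tmem138, Zhx2 and Armc10 (r of 0.991, 0.984 and 0.979). The 6 points of Fn1 are mainly a gap between the groups, whereas the groups overlap in Sparc, so its r values also follow the spread between libraries of a group.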

How the data were processed

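RNA-seq was compared between 3 Scr and 3 MICT1 KO libraries of differentiated, forskolin-treated BAT cells. Per the methods, strand-specific total RNA libraries were sequenced as read pairs and aligned to mm10 with Partek software; the submitters' processing notes also list STAR and DESeq2. The authors deposited a normalized signal per gene, above 0 in every gene and library listed. From the values, each value appears to be an estimated read number over a size factor: 88.8% to 90.3% of values under 20 were whole multiples of a step per library (tolerance 0.01). Whole reads could thus not be recovered across the table and no count test was run, whereas for Eln the values with size factors undone lay within that tolerance of whole reads in all 6 libraries. Counting model and annotation are not given in the sources used here.

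Values were compared with limma-trend (limma 3.58.1, R 4.3.3) on log2(value + 1), after a filter of 10 in at least 3 libraries, with Benjamini-Hochberg adjustment over 12507 genes and a threshold of 0.05. RPKM used GENCODE vM21 exon lengths, found for 13148 genes (99.0%). Positions are RefSeq on GRCm38. The fitting functions were run on simulated data as a check of the code. That simulation changed far fewer genes than were called here, so it does not measure the error of these calls. Members and lists were chosen with earlier results of these data known. The 10 members were named, and from each other list the 3 largest changes past the threshold with a mean of at least 10 CPM and the most abundant gene, with any others marked as chosen later. Alternatives were other scalings, pseudocounts, filters, limma-voom, the replicate number as a block and each library left out. The labels do not say that libraries are separate cultures, though the methods call replicates biological. With 3 against 3, an exact permutation test of one value has a smallest p of 0.1, and limma was used because it shares the spread across genes.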

Additional observations from a re-analysis of the deposited data

How the results depend on the processing

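The count of members called higher was 8 in the main comparison, 7 to 9 under the other settings and 8 in each of the fits that left out a library, and 0 were lower throughout except without the filter on low values, where Eln was tested and 1 was lower (log2 fold change -2.41). Leaving out each library gave log2 fold changes of 1.83 to 1.95 for Fn1, 2.34 to 2.48 for Thbs1, 1.44 to 1.55 for Thbs2, 0.70 to 1.19 for Thbs3, 0.27 to 0.42 for Postn, 1.03 to 1.14 for Tnc, 0.078 to 0.19 for Sparc, 2.23 to 2.37 for Spp1 and 1.53 to 1.78 for Fbn1. Thbs3 did not pass without KO replicate 2, where its log2 fold change was 0.75. Sparc passed under the 3 settings given above. The maximum of at least 4 RPKM left out Thbs3 and lowered the other matricellular genes called lower from 9 to 5. Elastic-fibre genes called lower ranged from 1 to 3 with a library left out, down to 1 without Scr replicate 2. The rule of 1.8-fold or more and unadjusted p under 0.05 gave 1265 genes higher and 924 lower, against 3569 and 3544. Coding length kept 6 of 10 places in the order by RPKM and lowered the mean ratio of Fn1 to Sparc from 0.900 to 0.372 in Scr and from 3.11 to 1.29 in KO. No scaling moved the median of all genes by over 0.1. The replicate numbers did not pair the libraries (correlation of same-numbered deviations -0.024, -0.016 and 0.064), and with the number as a replicate block 8 members were higher, and 3543 of all genes higher and 3512 lower. The quasi-likelihood count test was not run. Depth limits Eln, with 35 reads in Scr and 4 in KO.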
